A study of Mus musculus with 14 samples.

Results

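The 37 genes described here are the transcription factor NRF2 (gene Nfe2l2), its repressor Keap1, and 35 genes of the enzymes that keep a cell's thiols reduced and remove peroxides, superoxide, quinones and reactive carbonyls. They were chosen by symbol, with earlier results of these data known, so counts set beside the share of all genes are descriptions and not tests. All 37 were found among the 49584 genes of the deposited table. By role they comprise 2 regulators, 4 genes of glutathione synthesis and recycling, 5 of the thioredoxin system and 5 of NADPH supply. The others are 8 genes of quinone, carbonyl and epoxide metabolism (Osgin1 included), 4 superoxide dismutases and catalase, 3 glutathione peroxidases and 6 peroxiredoxins. A level is given in FPKM (fragments per kilobase of gene, scaled to the assigned reads of the library). A log2 fold change is a difference in log2(FPKM + 1) with its standard error (SE), and a gene "rose" or "fell" where limma's adjusted p was under 0.05. A rise given as a number of folds is a ratio of group means in FPKM, so it need not match the log2 fold change.

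The samples were whole mouse kidneys, sequenced as 14 RNA libraries in 4 groups. Wild-type (WT) mice gave 3 libraries without drug and 4 libraries after cisplatin. Mice with a conditional knockout of the receptor-interacting kinase gene Ripk4 (cKO) gave 3 and 4 libraries likewise. Cisplatin, a platinum drug that damages DNA and is toxic to the proximal tubule, had been injected into the abdomen at 15 mg per kg, and kidneys were collected 4 days later. The labels name no Cre driver, so the cells that lost Ripk4 are not known, and they give no age, sex, strain or batch. Nor do they say whether libraries of a group came from separate animals, so p-values measure the spread between libraries, which may be technical. Replicate numbers used here follow the order of the samples in the series and are not in the labels. WT cisplatin libraries enter the cisplatin response in WT, the comparison of genotypes after cisplatin and the difference of responses, so these results are not independent.

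NRF2 is held at a low level by KEAP1, an adaptor of the CUL3 ubiquitin ligase that marks it for degradation. Oxidants and electrophiles modify cysteines of KEAP1, NRF2 then accumulates, enters the nucleus, pairs with a small MAF protein and binds antioxidant response elements near genes of glutathione synthesis, the thioredoxin system, the pentose phosphate pathway and carbonyl reduction. NRF2 is controlled mainly at the protein level, so the RNA of Nfe2l2 does not report its activity. The kidney's proximal tubule is rich in mitochondria and peroxisomes, is the main source of the secreted glutathione peroxidase of plasma, and takes up cisplatin.

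Because NRF2 binds a known DNA element, the promoters of these genes were searched for the letters of that element. RefSeq promoter windows on GRCm38.p6, from 250 bases before to 50 bases after the start site, were at hand for 33 of the 37 genes (none for Gclc, Gsr, Prdx6 and Sod3). The core letters TGACNNNGC, searched on both strands, were in the windows of 9 of the 33 (27.3%), and in those of 13.99% of all 27025 genes with a window. A stricter form, TGACTCAGC, has a fixed letter at each N of the core. It was in 2 of the 33 (Prdx1 and Me1), and in 0.503% of all genes. The members had 1.15 windows per gene and all genes 1.22. The 9 stretches are printed 5′ to 3′ on the gene's strand, with the match in capitals and GRCm38.p6 coordinates.
Nfe2l2, chr2:75704885-75704913, minus strand: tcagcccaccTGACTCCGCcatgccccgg
Gclm, chr3:122245413-122245441, plus strand: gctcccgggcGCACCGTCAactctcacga
Txnrd1, chr10:82859104-82859132, plus strand: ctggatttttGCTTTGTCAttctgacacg
Srxn1, chr2:152105542-152105570, plus strand: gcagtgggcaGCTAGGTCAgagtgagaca
G6pdx, chrX:74428919-74428947, minus strand: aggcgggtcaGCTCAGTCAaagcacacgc
Pgd, chr4:149166061-149166089, minus strand: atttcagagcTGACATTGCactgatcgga
Me1, chr9:86695902-86695930, minus strand: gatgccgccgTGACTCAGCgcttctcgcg
Sod1, chr16:90220696-90220724, plus strand: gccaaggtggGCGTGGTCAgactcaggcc
Prdx1, chr4:116685456-116685484, plus strand: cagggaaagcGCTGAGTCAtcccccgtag
In Gclm, Txnrd1, Srxn1, G6pdx, Sod1 and Prdx1 the match lies on the opposite strand and so reads reversed and complemented. The Pgd match is in its window at 149166033 to 149166332, which lies inside the gene. The Pgd window at 149166656 to 149166955, across the start of the gene, held none. A match is a run of letters and not a bound site. Among the windows, 5 of 14 genes that rose after cisplatin in WT held the core, as did 3 of 15 genes not called and 1 of 3 that fell. No letters of this kind were found in the windows of Nqo1, Akr1b8 or Cbr3, which says only that the window does not hold them.

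Libraries held 36.7 to 77.0 M assigned reads (M, mega), as recovered from the FPKM values, so 1 read in a gene of 1 kb was worth 0.0130 to 0.0273 FPKM (counting error only), and 36 of the 37 genes had a mean of at least 0.5 FPKM and were tested among 15193 genes. The exception, Gpx2, was between 0 and 0.113 FPKM. Ripk4 itself was 7.18, 8.11 and 8.51 FPKM in WT and 3.68, 3.98 and 4.61 in cKO without drug, where the groups did not overlap but the difference did not pass (−0.81 ± 0.24, adjusted p = 1.00, unadjusted p = 0.00481). After cisplatin it was 7.61, 10.6, 13.3 and 9.002 FPKM in WT and 5.32, 5.62, 9.09 and 3.61 in cKO, lower in cKO with overlap through cKO replicate 3 (−0.72 ± 0.21, adjusted p = 0.0216). That limma call was not kept in every fit without 1 library (largest adjusted p = 0.0723), nor in every alternative fit (largest adjusted p = 0.0965). The library labelled cKO cisplatin replicate 4 had Havcr1 (kidney injury molecule 1) at 5.38 FPKM and Lcn2 (lipocalin 2) at 1.502 FPKM. Both were within the range of the untreated libraries, and so in these genes it went against its label. Of the 17 members that rose in WT with cisplatin, this library was above the untreated cKO range for 8, within it for 6 and below it for 3. The other 3 cKO cisplatin libraries had Havcr1 at 70.8, 37.1 and 35.2 FPKM, and WT cisplatin libraries had 370, 414, 1116 and 1060. The summed level of 7 red blood cell genes was 566 to 1175 FPKM in untreated libraries, 811 in that library and 19.4 to 31.2 in the other 7 cisplatin libraries. WT and cKO cisplatin replicate 1 also stood apart, with summed levels of 6 podocyte markers of 42.6 and 67.7 FPKM against 126 to 190 in the other 12 libraries. Counts of members that passed are also given without these libraries where they changed. Values of single genes are given without them for some genes only.

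In untreated WT kidney the mean level ran from 0.0112 FPKM for Gpx2 to that of Gpx3, 22722 ± 1440 FPKM (SD, n = 3). Gpx3, the secreted peroxidase, was the first or second most abundant RNA in all 14 libraries and held 2.80 to 4.46% of the summed FPKM. The other members at or above 1000 FPKM were Gpx1 (1973 ± 19.1), Akr1a1 (1598 ± 85.5) and Prdx5 (1083 ± 65.3; all SD, n = 3). In all, 4 members were at or above 1000 FPKM, 15 between 100 and 1000, 15 between 10 and 100, and 3 under 10 (Akr1b8 at 2.38, Cbr3 at 1.32 and Gpx2).

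Cisplatin raised 17 of the 36 tested genes in WT kidney and lowered 3 (Me1, Akr1a1 and Sod2), and 16 were not called. Over all 15193 genes tested, 22.3% rose and 12.1% fell (3392 and 1832 genes; 2678 and 2337 with median-of-ratios scaling, 2650 and 2600 with quantile normalization). The median log2 fold change was 0.38 over the 36 genes and 0.10 over all genes. Every cisplatin library lay above every untreated one for 17 genes and below for 2, where 24.6% and 14.3% of all genes did so. By role, 1 of 2 regulators rose, 2 of 4 genes of glutathione synthesis and recycling, 3 of 5 of the thioredoxin system, 4 of 5 of NADPH supply, 6 of 8 of the quinone, carbonyl and epoxide class, 0 of 4 superoxide dismutases and catalase, 0 of 2 tested glutathione peroxidases and 1 of 6 peroxiredoxins. WT cisplatin replicate 4 was the highest of its group for 15 of the 17 genes that rose. Without it the same count of 17 rose and 2 fell.

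In cKO kidney 0 of the 36 genes passed in either direction by limma, with 6 at an unadjusted p under 0.05, and log2 fold changes ran from −0.52 (Me1) to 1.28 (Ephx1). Over all genes 0% rose and 0.0197% (3 genes) fell, with 1754 at an unadjusted p under 0.05. Without the library labelled cKO cisplatin replicate 4, 1 of the 36 rose (Ephx1) and 0 fell, with 9 at an unadjusted p under 0.05, where 1.13% and 0.757% of all genes did. The 3 remaining libraries lay above all untreated cKO ones for 11 genes (Nfe2l2, Txnrd1, Srxn1, G6pdx, Pgd, Nqo1, Ephx1, Cbr1, Cbr3, Akr1c13 and Gpx3) and below them for 3 (Me1, Sod2 and Cat), where 15.6% and 8.02% of all genes did so.

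Without drug the genotypes were not told apart on any of these genes. None of the 36 passed in either direction (limma), 0 had an unadjusted p under 0.05, and the log2 differences (cKO minus WT) ran from −0.26 (Gclc) to 0.45 (Akr1b8). Over all genes 0% rose and 0% fell, with 123 at an unadjusted p under 0.05.

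After cisplatin 18 of the 36 genes were lower in cKO than in WT and 2 were higher (Akr1a1 and Sod2), where 18.1% and 8.77% of all genes were (2755 and 1333 genes; 2031 and 1781 with median-of-ratios scaling, 2081 and 1993 with quantile normalization). The median log2 difference was −0.40 over the 36 and −0.11 over all genes. Every cKO library lay below every WT library for 16 genes and above for 1 (Sod2), where 13.8% and 7.33% of all genes did so. The WT cisplatin libraries also enter the response in WT, so the values of both comparisons are given side by side for most of the genes that passed. Without the library labelled cKO cisplatin replicate 4, 16 were lower (Gclm and Prdx6 no longer passed) and 1 higher (Akr1a1 no longer passed), against 12.6% and 6.45% of all genes. The change with cisplatin in cKO minus that in WT, here called the difference of responses, passed for 6 genes, all lower (Txnrd1, Srxn1, G6pdx, Pgd, Cbr3 and Akr1b8), against 2.65% lower and 1.41% higher over all genes. Without that library 4 passed (Srxn1, G6pdx, Pgd and Akr1b8), against 1.34% lower and 0.842% higher. Leaving out other single libraries also ended calls of this kind. The call of Txnrd1 was lost without 10 of the 14 libraries, each untreated one among them (largest adjusted p = 0.112), and that of Cbr3 without 9, again each untreated one among them (largest adjusted p = 0.111). Srxn1 lost it without any WT untreated library or cKO untreated replicate 2 or 3 (largest adjusted p = 0.0653). G6pdx and Pgd lost it without WT untreated replicate 2 or 3 or cKO untreated replicate 3 (largest adjusted p = 0.0556 for each). Akr1b8 passed without any 1 library (largest adjusted p = 0.0456).

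**Figure D1:**
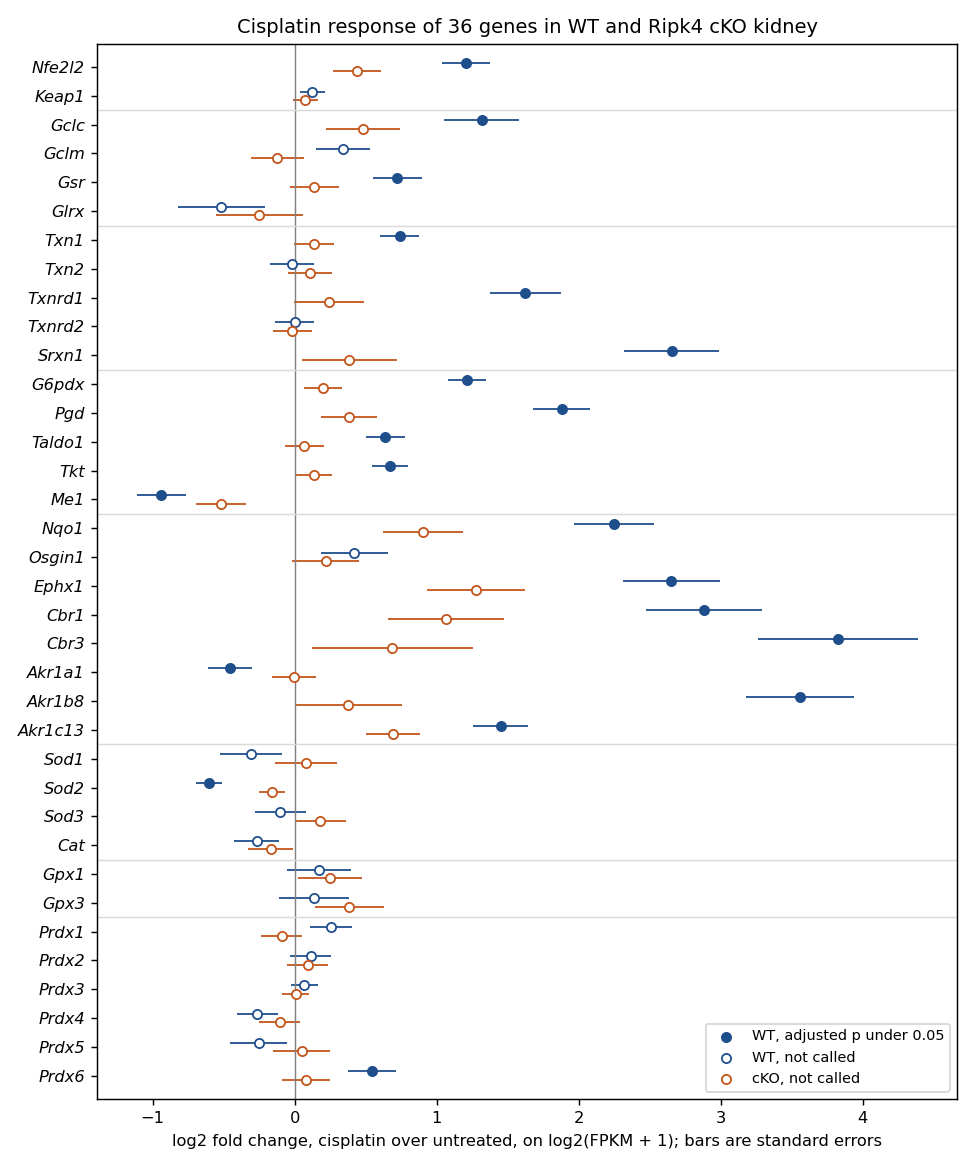
Log2 fold change (± SE) of cisplatin over untreated for 36 genes, ordered by role, in WT (blue) and cKO (orange). Filled points passed (limma adjusted p under 0.05), and filled points are on the WT side only, 17 to the right of 0 and 3 to the left.

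**Figure D2:**
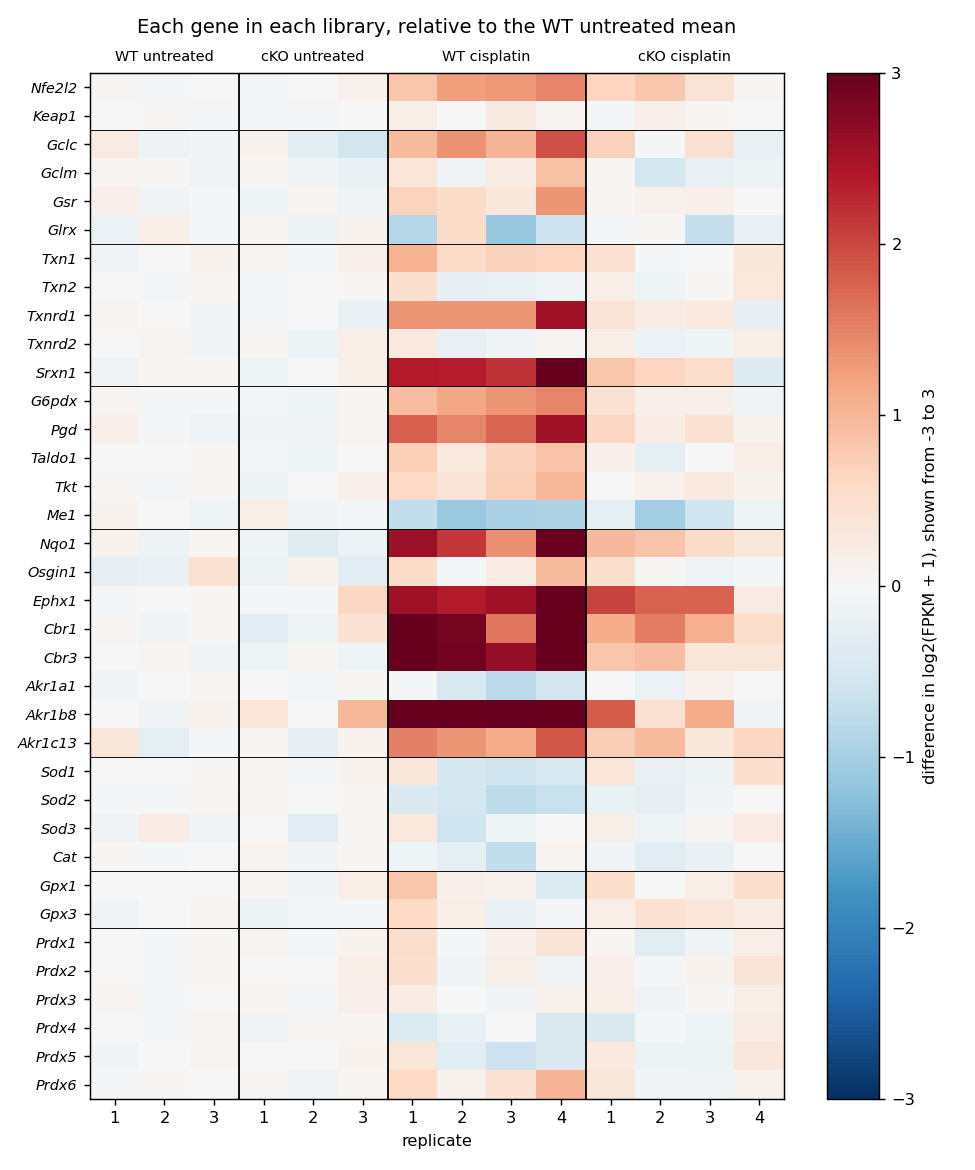
Difference in log2(FPKM + 1) from the WT untreated mean for 36 genes (rows, by role) in each of the 14 libraries (columns), with colours ending at −3 and 3. The red rows are in the WT cisplatin libraries, and cKO cisplatin libraries 1 to 3 are paler. Replicate 4 of that group is closer to the untreated libraries, though above the untreated cKO range for 8 of the 17 genes that rose in WT.

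Of the regulators, Nfe2l2 changed and Keap1 did not pass. Nfe2l2 (ENSMUSG00000015839, mm10 chromosome 2, 75675513 to 75704641), the NRF2 gene, was 46.0, 43.8 and 45.2 FPKM in untreated WT and 80.3, 108, 113 and 125 after cisplatin. It was 44.2, 44.6 and 49.1 FPKM in untreated cKO and 70.4, 79.0, 59.1 and 46.9 after cisplatin. All WT cisplatin libraries were above all others, and cKO cisplatin replicate 4 lay within the untreated cKO range. The rise in WT was 2.37-fold in the means (log2 fold change 1.21 ± 0.17, adjusted p = 1.49e-04), and after cisplatin cKO was lower than WT by −0.74 ± 0.15 (adjusted p = 0.00411). In cKO the change was 0.44 ± 0.17 (adjusted p = 0.307), and 0.58 ± 0.15 without replicate 4 (adjusted p = 0.0767). The difference of responses was −0.77 ± 0.23 (adjusted p = 0.0828). It passed without WT cisplatin replicate 1 (−0.90, adjusted p = 0.0147). Keap1 (ENSMUSG00000003308, chromosome 9, 21229730 to 21239361), the repressor, was 18.0, 18.5 and 17.1 FPKM in untreated WT and 20.2, 17.9, 21.7 and 18.6 after cisplatin. Levels in cKO were 17.3, 17.2 and 17.6 FPKM without drug and 17.0, 20.1, 18.6 and 17.9 after it. Its groups overlapped in every comparison, with log2 differences from −0.09 to 0.12 and standard errors of 0.08 to 0.13.

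The first and rate-limiting step of glutathione synthesis is carried out by glutamate-cysteine ligase. Gclc (ENSMUSG00000032350, chromosome 9, 77754535 to 77794485), its catalytic subunit, was 249, 191 and 198 FPKM in untreated WT and 412, 536, 429 and 815 after cisplatin. In cKO kidneys the values were 228, 168 and 143 FPKM without drug and 343, 203, 291 and 182 with it. WT cisplatin libraries were above all others, while those of cKO overlapped the untreated ones. Gclc rose 2.58-fold in WT (1.32 ± 0.26, adjusted p = 0.00184) and was lower in cKO after cisplatin (−1.09 ± 0.24, adjusted p = 0.00592). Gclm, the modifier subunit, was 309 ± 21.4 FPKM in untreated WT (SD, n = 3) and 404 ± 119 after cisplatin (SD, n = 4), with 0.34 ± 0.19 (adjusted p = 0.183). It was lower in cKO after cisplatin (−0.55 ± 0.18, adjusted p = 0.0340), although the groups overlapped. That call was lost when WT cisplatin replicate 3 or 4 or cKO cisplatin replicate 2, 3 or 4 was left out (largest adjusted p = 0.0916). The rise in WT passed without WT cisplatin replicate 2 (0.49, adjusted p = 0.0474). Gsr, glutathione reductase, which returns oxidised glutathione to its thiol form with NADPH, rose 1.71-fold in WT (0.72 ± 0.17, adjusted p = 0.00560) and was lower in cKO after cisplatin (−0.64 ± 0.16, adjusted p = 0.0108), which did not pass with only those groups in the fit (adjusted p = 0.0511). Its WT cisplatin libraries ran from 160 to 313 FPKM and its cKO ones from 124 to 140, without overlap. Glrx, a glutaredoxin that removes glutathione from proteins, was spread from 19.1 to 63.9 FPKM in WT cisplatin and passed in no comparison. The highest value was WT cisplatin replicate 2, and without that library Glrx fell in WT (−0.87, adjusted p = 0.00382) and was higher in cKO (0.64, adjusted p = 0.0190).

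In the thioredoxin system the cytosolic members rose and the mitochondrial members did not pass. Srxn1 (ENSMUSG00000032802, chromosome 2, 152105516 to 152111376), sulfiredoxin, which repairs overoxidised peroxiredoxins, was 50.02, 56.0 and 56.1 FPKM in untreated WT and 286, 280, 245 and 723 after cisplatin. For cKO the values were 49.7, 54.1 and 61.2 FPKM without drug and 96.7, 84.9, 78.2 and 41.2 with it. Each WT cisplatin library was above each cKO one, and the cKO library below the untreated range was replicate 4. Srxn1 rose 7.09-fold in WT (2.65 ± 0.33, adjusted p = 8.71e-05), by 2.30 without WT cisplatin replicate 4, and was lower in cKO by −2.25 ± 0.31 (adjusted p = 3.72e-04). Its responses differed by −2.27 ± 0.47 (adjusted p = 0.0221). Txnrd1 (ENSMUSG00000020250, chromosome 10, 82859206 to 82897724), the cytosolic thioredoxin reductase, was 56.2, 53.6 and 50.7 FPKM in untreated WT and 135, 136, 136 and 309 after cisplatin. The cKO libraries held 52.5, 53.2 and 46.8 FPKM without drug and 70.7, 63.0, 65.9 and 44.8 with it. The 3 lower WT cisplatin libraries were within 1 FPKM of each other and above every cKO library. Txnrd1 rose 3.35-fold in WT (1.63 ± 0.25, adjusted p = 3.02e-04), by 1.33 without WT cisplatin replicate 4, and was lower in cKO by −1.46 ± 0.23 (adjusted p = 8.28e-04). Its responses differed by −1.38 ± 0.35 (adjusted p = 0.0457). Txn1, cytosolic thioredoxin, rose 1.68-fold in WT (0.74 ± 0.14, adjusted p = 0.00130) and was lower in cKO after cisplatin (−0.55 ± 0.13, adjusted p = 0.00784), which did not pass with median-of-ratios scaling (adjusted p = 0.0868). The mitochondrial pair stayed near its untreated level: Txn2 changed by −0.02 ± 0.15 and Txnrd2 by 0.00 ± 0.14 in WT, and neither passed in any comparison. Without WT cisplatin replicate 1, where Txn2 was 281 FPKM against 171 to 187 in the other 3, Txn2 was higher in cKO after cisplatin (0.29, adjusted p = 0.0273).

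NADPH feeds both thiol systems, and 4 of the 5 genes classed here under NADPH supply rose in WT. Pgd (ENSMUSG00000028961, chromosome 4, 149149991 to 149166771), phosphogluconate dehydrogenase, was 68.8, 60.1 and 57.4 FPKM in untreated WT and 216, 173, 210 and 360 after cisplatin. Levels in cKO were 58.4, 57.8 and 65.5 FPKM without drug and 96.4, 72.7, 84.4 and 66.4 with it. All cisplatin libraries were above the untreated ones of their genotype, and those of cKO stayed below those of WT. Pgd rose 3.86-fold in WT (1.88 ± 0.20, adjusted p = 3.36e-05), changed by 0.38 ± 0.20 in cKO (adjusted p = 0.495), and the responses differed by −1.498 ± 0.282 (adjusted p = 0.0172). G6pdx (ENSMUSG00000031400, chromosome X, 74409483 to 74429194), glucose-6-phosphate dehydrogenase, the entry enzyme of the pentose phosphate pathway, was 25.5, 23.6 and 23.5 FPKM in untreated WT and 46.7, 55.6, 61.6 and 68.2 after cisplatin. In cKO kidneys the values were 23.2, 22.04 and 25.5 FPKM without drug and 32.9, 27.1, 27.1 and 22.6 with it. The WT cisplatin libraries stood alone above all others. G6pdx rose 2.40-fold in WT (1.21 ± 0.13, adjusted p = 4.16e-05), was lower in cKO by −1.05 ± 0.12 (adjusted p = 1.98e-04), and its responses differed by −1.01 ± 0.19 (adjusted p = 0.0169). It overlaps Ikbkg on the opposite strand, which was up to 32.6 FPKM, and the strand used in counting is not given in the sources used here. Taldo1 (transaldolase) and Tkt (transketolase), of the pathway's non-oxidative arm, rose 1.58- and 1.61-fold in WT (0.64 ± 0.14 and 0.67 ± 0.13) and were lower in cKO after cisplatin (−0.62 ± 0.13 and −0.54 ± 0.12). Me1, cytosolic malic enzyme, went the other way. It was 380, 361 and 327 FPKM in untreated WT and 213, 165, 180 and 186 after cisplatin, and in cKO 401, 334 and 340 without drug and 292, 173, 235 and 323 with it. The cisplatin libraries were below the untreated ones in both genotypes. Me1 fell in WT (−0.94 ± 0.18, adjusted p = 0.00122). In cKO it changed by −0.52 ± 0.18 (adjusted p = 0.239), and the difference between genotypes after cisplatin was 0.42 ± 0.16 (adjusted p = 0.0679). Leaving out WT cisplatin replicate 1 made that difference pass (0.49, adjusted p = 0.0369), and so did leaving out replicate 2 of the treated cKO group (0.60, adjusted p = 0.00617).

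The largest fold changes were in the quinone, carbonyl and epoxide enzymes, of which 6 of 8 rose in WT. Akr1b8 (ENSMUSG00000029762, chromosome 6, 34354119 to 34368463), an aldose reductase-like enzyme, was 2.37, 2.16 and 2.62 FPKM in untreated WT and 28.8, 31.3, 57.8 and 43.3 after cisplatin. For cKO the values were 3.35, 2.41 and 5.65 FPKM without drug and 10.96, 3.66, 6.26 and 2.22 with it. Every WT cisplatin library was above every other library, and those of cKO overlapped the untreated ones. Akr1b8 rose 16.9-fold in WT (3.56 ± 0.38, adjusted p = 3.36e-05), was lower in cKO by −2.73 ± 0.35 (adjusted p = 2.74e-04), and its responses differed by −3.18 ± 0.53 (adjusted p = 0.0129). Cbr3 (ENSMUSG00000022947, chromosome 16, 93683215 to 93690990), a carbonyl reductase, was 1.34, 1.45 and 1.16 FPKM in untreated WT and 31.5, 16.2, 13.4 and 143 after cisplatin. The cKO libraries held 1.11, 1.41 and 1.10 FPKM without drug and 3.12, 3.40, 1.96 and 1.97 with it. Cisplatin libraries were above untreated ones in both genotypes, and WT ones were above cKO ones. The ratio of the WT means was 38.7-fold and rests largely on WT cisplatin replicate 4 (WT cisplatin mean 51.0 FPKM, median 23.8). On the log2 scale Cbr3 rose by 3.83 ± 0.57 in WT (adjusted p = 2.46e-04), and by 3.11 without that library. It was lower in cKO by −3.21 ± 0.52 (adjusted p = 0.00105). Its responses differed by −3.14 ± 0.80 (adjusted p = 0.0474). Nqo1 (ENSMUSG00000003849, chromosome 8, 107388225 to 107403206), the quinone reductase often used as a readout of NRF2, was 32.4, 27.0 and 31.4 FPKM in untreated WT and 184, 134, 79.2 and 240 after cisplatin. Levels in cKO were 27.6, 23.1 and 26.4 FPKM without drug and 59.9, 54.9, 44.8 and 38.6 with it. All cisplatin libraries were above the untreated ones of their genotype, replicate 4 of cKO included. Nqo1 rose 5.26-fold in WT (2.25 ± 0.28, adjusted p = 8.07e-05), was 1.93-fold higher in the cKO means without passing (0.90 ± 0.28, adjusted p = 0.204), and was lower in cKO than in WT after cisplatin (−1.57 ± 0.26, adjusted p = 0.00110). Its responses differed by −1.35 ± 0.40 without passing (adjusted p = 0.0729), and passed without WT cisplatin replicate 3 (−1.64, adjusted p = 0.0167).

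Ephx1, microsomal epoxide hydrolase, rose 6.54-fold in WT (2.65 ± 0.34, adjusted p = 1.05e-04). In cKO kidneys the values were 45.0, 44.1 and 71.0 FPKM without drug and 191, 159, 160 and 54.4 after cisplatin, so replicates 1 to 3 were above the untreated range and replicate 4 within it. The cKO change was 1.28 ± 0.34 (adjusted p = 0.156), and without replicate 4 it passed (1.68 ± 0.20, adjusted p = 9.84e-04). Ephx1 was lower in cKO than in WT after cisplatin (−1.20 ± 0.32, adjusted p = 0.0144; −0.80 ± 0.19 without replicate 4, adjusted p = 0.0127), and did not pass with only those groups in the fit (adjusted p = 0.0551). Cbr1, the main cytosolic carbonyl reductase, rose 8.94-fold in WT (2.88 ± 0.41) and changed by 1.07 ± 0.41 in cKO (adjusted p = 0.313), with all cKO cisplatin libraries above the untreated ones. Akr1c13, an aldo-keto reductase, rose 2.83-fold in WT (1.45 ± 0.19) and changed by 0.69 ± 0.19 in cKO (adjusted p = 0.161), again with no overlap. Both were lower in cKO than in WT after cisplatin (−1.82 ± 0.38 and −0.79 ± 0.18). Osgin1, an NRF2 target that restrains growth, was 76.9 ± 22.9 FPKM in untreated WT (SD, n = 3) and 104 ± 31.5 after cisplatin (SD, n = 4), and did not pass (0.42 ± 0.23, adjusted p = 0.187). Akr1a1, the abundant aldehyde reductase that in mice also serves ascorbate synthesis, fell in WT (−0.46 ± 0.15, adjusted p = 0.0341) and was higher in cKO after cisplatin (0.44 ± 0.14, adjusted p = 0.0362), with overlapping groups. The fall was lost without any of the 3 WT untreated libraries or without WT cisplatin replicate 2, 3 or 4 (largest adjusted p = 0.114). The difference between genotypes was lost without WT untreated replicate 2 or WT cisplatin replicate 2, 3 or 4. It was also lost without cKO cisplatin replicate 1, 3 or 4 (largest adjusted p of all these fits = 0.105). WT cisplatin replicate 1 had Akr1a1 at 1566 FPKM, against 924 to 1165 in the rest of its group. Without both replicates 1 of the cisplatin groups, Akr1a1 fell in WT by −0.60 (adjusted p = 0.00188) and was higher in cKO by 0.58 (adjusted p = 0.00315). Its responses differed only in fits of this kind (0.59 without WT cisplatin replicate 1, adjusted p = 0.0251). Reads of Cbr1 and Cbr3, of Akr1b8 and its relatives Akr1b7 and Akr1b10, and of Akr1c13 and Akr1c12 could be shared between copies, so their levels are uncertain to that extent.

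**Figure D3:**
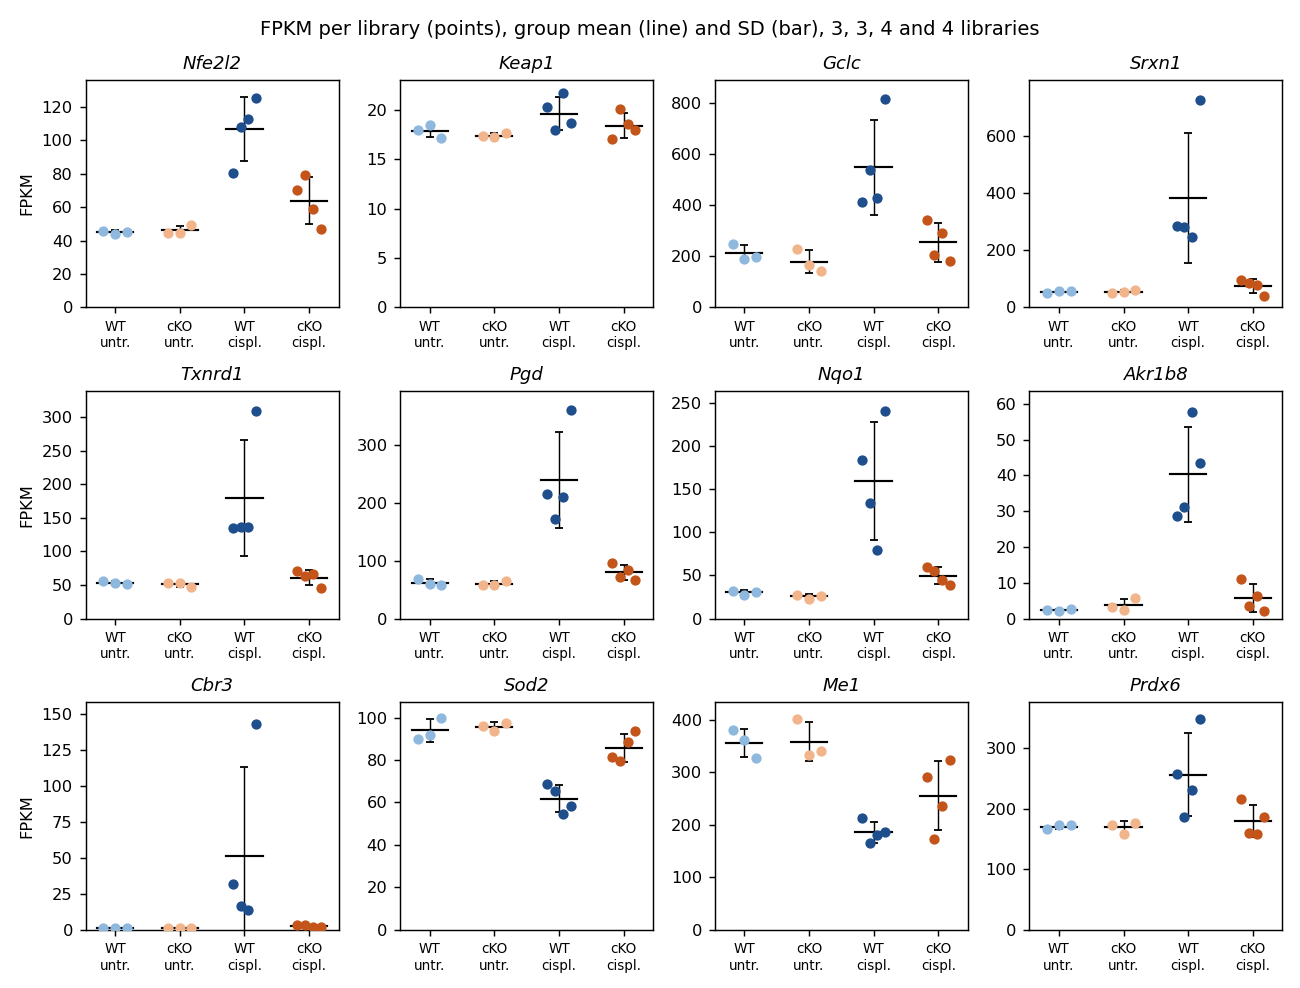
FPKM of 12 of the genes in each library (points), with the group mean (line) and SD (bar), for WT untreated, cKO untreated, WT cisplatin and cKO cisplatin. Each axis starts at 0, so the lower end of the Cbr3 bar in WT cisplatin is not drawn; the single high points of Srxn1, Txnrd1 and Cbr3 are WT cisplatin replicate 4, and Sod2 and Me1 are lowest in WT cisplatin.

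Superoxide dismutases turn superoxide into hydrogen peroxide, which catalase removes in peroxisomes. Sod2 (ENSMUSG00000006818, chromosome 17, 13007839 to 13018119), the mitochondrial enzyme, was 90.1, 91.8 and 99.99 FPKM in untreated WT and 68.8, 65.2, 54.6 and 58.5 after cisplatin. For cKO the values were 96.1, 93.5 and 97.5 FPKM without drug and 81.6, 79.4, 88.7 and 93.8 with it. All WT cisplatin libraries lay below all others, and the cKO cisplatin libraries reached into the untreated range through replicate 4 alone. Sod2 fell in WT (−0.60 ± 0.09, adjusted p = 3.15e-04) and was higher in cKO than in WT after cisplatin (0.47 ± 0.09, adjusted p = 0.00184). Its responses differed by 0.44 ± 0.13 (adjusted p = 0.0734), and passed without WT cisplatin replicate 1 (0.50, adjusted p = 0.0181). The cytosolic Sod1, the secreted Sod3 and catalase (Cat) did not pass in any comparison, with log2 fold changes in WT of −0.31 ± 0.22, −0.10 ± 0.18 and −0.27 ± 0.16. Sod1 was 807 FPKM in WT cisplatin replicate 1 and 420 to 466 in the other 3, and without that library it fell in WT (−0.52, adjusted p = 0.0228) and was higher in cKO (0.64, adjusted p = 0.00613).

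Glutathione peroxidases reduce peroxides with glutathione, and none passed in any comparison. Gpx1 (ENSMUSG00000063856, chromosome 9, 108338903 to 108340343), the cytosolic enzyme, was 1951, 1987 and 1981 FPKM in untreated WT and 3429, 2205, 2158 and 1483 after cisplatin. The cKO libraries held 2042, 1870 and 2256 FPKM without drug and 2824, 1981, 2269 and 2760 with it. The cisplatin libraries were spread on both sides of the untreated ones in WT (0.17 ± 0.22, adjusted p = 0.601). Gpx3 (ENSMUSG00000018339, chromosome 11, 54902453 to 54910377) was 21228, 22836 and 24102 FPKM in untreated WT and 34337, 26234, 19733 and 21799 after cisplatin. Levels in cKO were 20425, 22055 and 22298 FPKM without drug and 26094, 31153, 29395 and 26408 with it. Every cKO cisplatin library was above every untreated cKO one, while those of WT overlapped. The log2 fold changes were 0.39 ± 0.24 in cKO (adjusted p = 0.591) and 0.14 ± 0.24 in WT (adjusted p = 0.703). Gpx2, known from the gut lining, was listed at 0 in 9 of the 14 libraries.

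Peroxiredoxins are abundant thiol peroxidases, and 1 of the 6 rose. Prdx6 (ENSMUSG00000026701, chromosome 1, 161240112 to 161251219), which works with a single cysteine and glutathione, was 166, 173 and 172 FPKM in untreated WT and 258, 187, 230 and 348 after cisplatin. In cKO kidneys the values were 173, 158 and 177 FPKM without drug and 215, 160, 158 and 186 with it. WT cisplatin libraries were above the untreated ones and overlapped those of cKO. Prdx6 rose 1.501-fold in WT (0.55 ± 0.17, adjusted p = 0.0230) and was lower in cKO after cisplatin (−0.48 ± 0.16, adjusted p = 0.0372). The first call was lost without any 1 of the WT untreated libraries (largest adjusted p = 0.0695). The second was lost without WT untreated replicate 2 or 3, WT cisplatin replicate 3 or 4, or cKO cisplatin replicate 2, 3 or 4 (largest adjusted p = 0.0999). Prdx1 (ENSMUSG00000028691, chromosome 4, 116685544 to 116700822) is a cytosolic peroxiredoxin whose window holds the stricter form of the element. It was 879, 832 and 885 FPKM in untreated WT and 1251, 846, 955 and 1129 after cisplatin. For cKO the values were 912, 834 and 936 FPKM without drug and 900, 688, 807 and 987 with it. Its groups overlapped in both genotypes, with 0.26 ± 0.15 in WT (adjusted p = 0.199) and −0.30 ± 0.14 between genotypes after cisplatin (adjusted p = 0.116). The latter passed without WT cisplatin replicate 2 (−0.40, adjusted p = 0.0447). Prdx4 (ENSMUSG00000025289, chromosome X, 155323918 to 155340754), of the endoplasmic reticulum, was 19.8, 19.0 and 21.1 FPKM in untreated WT and 14.7, 17.3, 19.8 and 14.6 after cisplatin. The cKO libraries held 18.4, 20.3 and 21.3 FPKM without drug and 14.5, 19.0, 18.0 and 23.3 with it, so the groups overlapped (−0.26 ± 0.14 in WT, adjusted p = 0.176). Prdx2 and Prdx3, of the cytosol and the mitochondria, changed by 0.11 ± 0.14 and 0.07 ± 0.10 in WT without passing. Prdx5 changed by −0.25 ± 0.20 in WT without passing, and passed without WT cisplatin replicate 1 (−0.46, adjusted p = 0.0228), as did its difference between genotypes after cisplatin (0.54, adjusted p = 0.00799). Prdx2 overlaps Junb and Rnaseh2a, and Prdx5 overlaps Trmt112, on opposite strands.

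**Figure D4:**
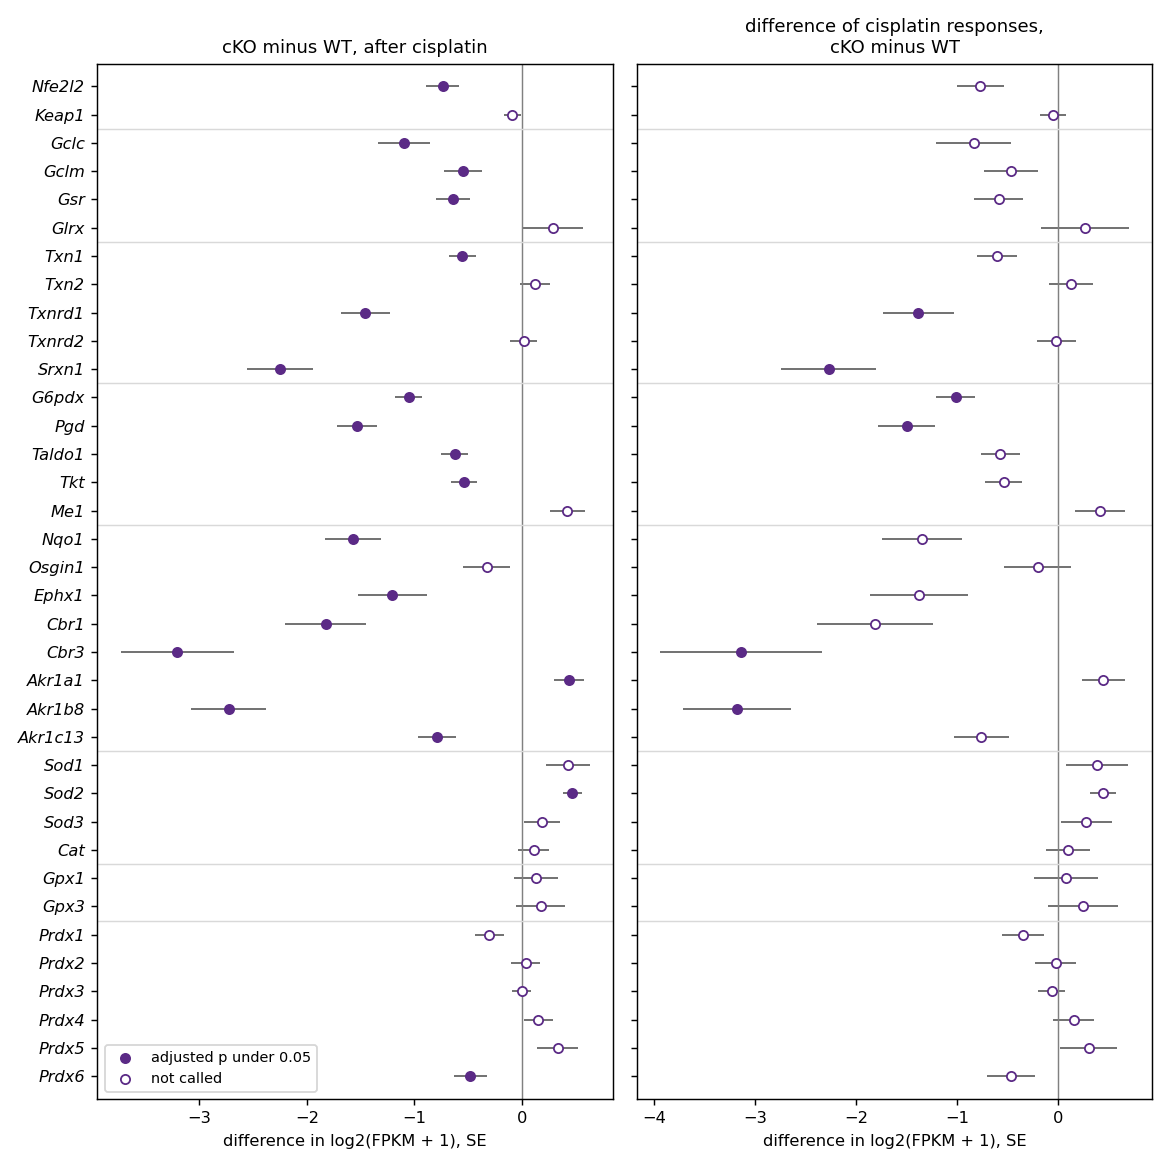
Left, cKO minus WT after cisplatin, and right, the difference of responses, in log2(FPKM + 1) with SE for 36 genes. Filled points passed, 20 on the left (18 below 0, 2 above) and 6 on the right, all below 0.

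Other genes of the pathway were taken from lists chosen by role, again with earlier results of these data known. Of 27 tested other NRF2 targets, 18 rose and 1 fell in WT, and after cisplatin 14 were lower and 1 higher in cKO. Over all genes 22.3% rose and 12.1% fell in WT, and 18.1% were lower and 8.77% higher in cKO after cisplatin. Aldh1a7, an aldehyde dehydrogenase, rose from 4.35 ± 1.02 FPKM (SD, n = 3) to 37.0 ± 11.9 in WT (SD, n = 4; 2.79 ± 0.27, adjusted p = 2.04e-05) and was 10.7 ± 3.49 in cKO (SD, n = 4). Mgst1, a microsomal glutathione transferase, rose by 2.08 ± 0.23 in WT and was lower in cKO by −1.38 ± 0.21. Gsta1, a cytosolic glutathione transferase, rose by 3.88 ± 0.46 and was lower in cKO by −2.87 ± 0.43. These 3 also passed the test of the difference of responses (largest adjusted p = 0.0342).

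Of 17 genes that control NRF2, 3 rose and 3 fell in WT, and 5 were lower in cKO after cisplatin. Over all genes 22.3% rose and 12.1% fell in WT, and 18.1% were lower in cKO after cisplatin. The counts of this list are not far from these shares, and so are not a result about it. Maff, a small MAF protein, rose from 1.54 ± 0.516 FPKM (SD, n = 3) to 16.9 ± 3.55 (SD, n = 4; 2.82 ± 0.29, adjusted p = 2.81e-05) and was lower in cKO by −2.11 ± 0.27 (adjusted p = 2.74e-04). Sqstm1, the autophagy receptor p62, which can sequester KEAP1, rose from 481 ± 16.6 FPKM (SD, n = 3) to 831 ± 70.5 (SD, n = 4; 0.79 ± 0.10) and was lower in cKO by −0.73 ± 0.09. Syvn1, a ubiquitin ligase of the endoplasmic reticulum, rose by 0.42 ± 0.12. Dpp3, a peptidase that binds KEAP1, was lower in cKO by −0.36 ± 0.09 and did not pass in WT (0.26 ± 0.10, adjusted p = 0.0590).

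Of 21 other glutathione genes, 7 rose and 4 fell in WT, and after cisplatin 5 were lower and 2 higher in cKO, where 22.3% and 12.1% of all genes rose and fell and 18.1% and 8.77% were lower and higher. Dpep1, a brush-border dipeptidase that cleaves cysteinyl-glycine, fell by 1.62 ± 0.27 in WT and was higher in cKO by 1.29 ± 0.25. Esd (an esterase of formyl-glutathione), Slc3a2 (the heavy chain of the cystine transporter) and Chac1 (which degrades glutathione) rose by 0.87 ± 0.14, 0.67 ± 0.15 and 0.92 ± 0.23 and were each lower in cKO. Of 16 other thioredoxin, glutaredoxin and methionine sulfoxide genes, 5 rose and 0 fell in WT, and 4 were lower in cKO, not far from the same all-gene shares. Glrx3 rose by 1.15 ± 0.14, the stress-induced Sesn2 by 1.38 ± 0.26 and Txnrd3 by 0.41 ± 0.11, while Sesn3 was lower in cKO by −0.84 ± 0.17.

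Of 18 other genes of NADPH supply, 6 rose and 4 fell in WT, and 6 were higher and 5 lower in cKO after cisplatin. The all-gene shares were 22.3% that rose, 12.1% that fell, 8.77% higher and 18.1% lower. The mitochondrial Idh2 (isocitrate dehydrogenase) fell from 514 ± 33.3 FPKM (SD, n = 3) to 263 ± 62.5 (SD, n = 4; −0.99 ± 0.15, adjusted p = 2.41e-04) and was 499 ± 26.2 in cKO (SD, n = 4). Nadk2 (mitochondrial NAD kinase) and Mthfd1 (cytosolic folate enzyme) fell by 0.92 ± 0.11 and 0.74 ± 0.10, and Mthfd1l, its mitochondrial relative, rose by 1.00 ± 0.19. Of 16 tested other aldo-keto and carbonyl reductases, 3 rose and 5 fell in WT, and 4 were higher and 1 lower in cKO after cisplatin. Akr1c14 fell by 1.99 ± 0.24, and Akr1c12 rose by 1.34 ± 0.23. Akr1b3 and Akr7a5 fell by 1.35 ± 0.28 and 0.71 ± 0.22. Of 14 tested oxidant sources, 4 rose and 3 fell in WT, not far from the all-gene shares, and 4 were higher and 5 lower in cKO after cisplatin. The abundant Cyp2e1, a cytochrome P450 that leaks oxidants, fell by 2.20 ± 0.22, and Xdh (xanthine dehydrogenase) and Maoa (monoamine oxidase A) rose by 1.49 ± 0.28 and 1.29 ± 0.21.

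Markers of several cell types changed in the same comparisons. Over all genes 22.3% rose and 12.1% fell in WT, and 18.1% were lower and 8.77% higher in cKO after cisplatin. Of 12 proximal tubule markers 9 fell in WT after cisplatin and 0 rose, and 9 were higher in cKO than in WT after cisplatin. Their summed level was 11151 to 12458 FPKM in untreated WT, 11688 to 12066 in untreated cKO, 4813 to 8344 in WT cisplatin and 10433 to 12920 in cKO cisplatin. Of 8 thick ascending limb and distal tubule markers 4 fell and 1 rose in WT, and 4 were higher in cKO after cisplatin. In whole-kidney RNA, fewer cells of a type and less RNA per cell cannot be told apart. Of 10 tested macrophage genes 6 rose in WT, and 7 were lower in cKO after cisplatin. Their summed level was 78.6 to 92.5 FPKM in untreated WT, 58.4 to 88.4 in untreated cKO, 119 to 408 in WT cisplatin and 69.7 to 92.9 in cKO cisplatin. Of the 8 neutrophil markers 5 never reached 1 FPKM, and 1 was at 0 in all libraries. Of the 3 tested (S100a8, S100a9 and Csf3r), 1 rose in WT (S100a8) and all 3 were lower in cKO after cisplatin, with a summed level of all 8 of 1.76 to 4.59 FPKM in untreated WT, 0.968 to 2.43 in untreated cKO, 2.22 to 9.97 in WT cisplatin and 1.07 to 2.81 in cKO cisplatin. All 6 tested red blood cell genes fell in WT, and Prdx2, Cat and Gpx1 are known to be abundant in red cells as well. Of 8 fibroblast genes 2 rose in WT, near the all-gene share, and 3 were lower in cKO after cisplatin. The part of these cells in the members' changes was not tested.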

How the data were processed

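RNA of whole mouse kidneys was prepared for 14 libraries with Trizol and an Illumina TruSeq kit, per the labels. The authors deposited 1 table of FPKM values per gene and library; per the submitters' processing notes HISAT2 2.0.5 and mm10 were used, and the counter and strand setting are not given in the sources used here. Depth was recovered from the steps of low FPKM values, which were whole reads within 0.001 for 61.1 to 66.7% of genes under 50 reads, so no count test was run. All 14 library columns matched a sample, 0 library pairs were identical, and 1 emptied line was left out.

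Values were taken as log2(FPKM + 1), which understates changes of low genes. Only genes averaging 0.5 FPKM or more over the libraries entered limma 3.58.1 (R 4.3.3) with 4 group means over all libraries, an intensity trend and Benjamini-Hochberg adjustment (threshold 0.05). The code was tested on simulated data. The members and lists were chosen with earlier results of these data known. All 14 values are given for both regulators and, per role, for the members with the smallest p in WT and after cisplatin, and Me1 was added for its direction. Of each other list the genes with the smallest p were named. Alternatives were the pseudocount, filters, scalings, array weights, variance trend, samples in the fit and left-out libraries.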

Additional observations from a re-analysis of the deposited data

Results flagged for a closer look

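Of 74 groups of 4 libraries examined for 1 value far from the others (Dixon's test at 95%), 6 were found, and chance gives about 1 in 20 groups. WT cisplatin replicate 4 stood apart for Txnrd1 (309 FPKM, others 135 to 136), Srxn1 (723 FPKM, others 245 to 286) and Cbr3 (143 FPKM, others 13.4 to 31.5). WT cisplatin replicate 1 stood apart for Txn2 (281 FPKM, others 171 to 187) and Sod1 (807 FPKM, others 420 to 466). Gpx2 was 0.0173 FPKM in WT cisplatin replicate 3 and listed at 0 in the other 3.

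The cisplatin response differed between genotypes (limma, cKO minus WT) for Txnrd1 by −1.38, Srxn1 by −2.27, G6pdx by −1.01, Pgd by −1.498, Cbr3 by −3.14 and Akr1b8 by −3.18 on the log2 scale, each with an adjusted p given beside the gene's values.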

How the results depend on the processing

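None of the 46 called values of members changed sign under any alternative run, while 57 of the 134 values not called did so in at least 1. Without a filter, 1 member was higher and 16 lower in cKO after cisplatin, and 3 differed in response downward, with 1102, 2480 and 167 over all genes. With median-of-ratios scaling, 1 member was higher and 15 lower in cKO after cisplatin, and with only the groups compared in the fit 1 and 14. Over all genes these counts were 1781 and 2031, and 713 and 1448. With array weights, 6 members fell in WT, 3 rose and 1 fell in cKO, 5 were higher in cKO after cisplatin, and 17 differed in response downward and 2 upward. Calls over all genes grew as well with array weights, to 2488 that fell in WT, 556 that rose and 318 that fell in cKO, 1864 higher in cKO after cisplatin, and 2266 downward and 1163 upward in response (403 and 214 as reported). Without both replicates 1 of the cisplatin groups, 5 members fell in WT, 4 were higher in cKO after cisplatin, and 8 differed downward and 2 upward, with 2068, 1691, 1503 and 711 over all genes. Leaving out 1 library at a time, 16 to 18 members rose and 2 to 5 fell in WT, 0 to 1 rose and 0 fell in cKO, 0 passed between untreated genotypes, 1 to 6 were higher and 16 to 19 lower in cKO after cisplatin, and 1 to 8 differed downward and 0 to 2 upward. Over all genes the same ranges were 2463 to 4446 and 1356 to 2020 in WT, 0 to 172 and 0 to 115 in cKO, 0 to 1 each way without drug, 933 to 1771 and 1843 to 4430 after cisplatin, and 35 to 704 and 49 to 1541 for the responses (higher, then lower). The cause was not tested. Median-of-ratios scaling moved the median log2 fold change of all genes in WT from 0.10 to 0.01 and quantile normalization to −0.01. No paired analysis was possible because the labels give no pairing, and the replicate numbers used here are not theirs. With 3 or 4 libraries a group, small changes are not detectable.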
